A study of Rattus norvegicus with 8 samples.

Results

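The 10 circadian clock genes Clock, Npas2, Per1, Per2, Per3, Cry1, Cry2, Nr1d1, Nr1d2 and Dbp were examined in rat kidney. Probe sets were taken by gene symbol, with no threshold on their levels. Every probe set that the platform annotation gives to exactly 1 of these symbols was kept, which made 18 of the 31042 probe sets tested and 10 of the 14217 genes named, with 1 to 4 probe sets per gene. The kidneys came from female Sprague-Dawley rats aged 29 weeks that had eaten the same formulated low-Si feed for 26 weeks. Si deplete rats drank low-Si water with a daily intake of 0.17 mg Si per kg of body weight. Si replete rats drank water with added orthosilicic acid with a daily intake of 4.1 mg Si per kg. Each diet had 4 arrays, each hybridized with left kidney RNA of 1 rat after grinding of the whole organ, and arrays are named here by diet and number, from Si deplete 1 to 4 and from Si replete 1 to 4. By the study's methods, rats were killed singly with carbon dioxide, and a day's kills took 1 animal of each diet. Neither the hour of killing nor the arrays that shared a day could be taken from the labels or methods.

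The mammalian clock is a feedback loop of transcription. CLOCK, or its relative NPAS2, pairs with BMAL1 and switches on the Per and Cry genes through E-box elements, and the PER and CRY proteins then hold back their own activators. The same pair drives Nr1d1 and Nr1d2, whose REV-ERB proteins repress Bmal1 through ROR elements, and Dbp, whose protein acts on D-box elements. In the peripheral tissues of nocturnal rodents, Nr1d1, Nr1d2, Dbp and the Per genes reach their highest levels between the light phase and dusk or early night, whereas Bmal1, Npas2 and, with a smaller swing, Clock do so late in the night or around dawn. Kidney has such a clock, and tubular transport of sodium and water follows it. A single sample per animal gives 1 reading of this cycle.

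The RefSeq promoter windows of assembly GRCr8 carried letters of these elements for 4 of the 10 genes that had a window, Bmal1 included. They are shown because the elements are those through which the loop above is closed. E-boxes were searched as CACGTG and E-prime boxes as CACGTT, D-boxes as TTATGTAA or TTACGTAA, and ROR elements as ANTAGGTCA or ANTGGGTCA, each on both strands. No full match of 1 motif is also a full match of another. Capitals mark the match, and each stretch is written 5′ to 3′ on the gene's own strand.
Bmal1, ROR element, chr1:176766290-176766338, plus strand: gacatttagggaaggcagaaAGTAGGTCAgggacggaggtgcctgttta
Per2, D-box and then E-prime box, chr9:99497030-99497205, minus strand: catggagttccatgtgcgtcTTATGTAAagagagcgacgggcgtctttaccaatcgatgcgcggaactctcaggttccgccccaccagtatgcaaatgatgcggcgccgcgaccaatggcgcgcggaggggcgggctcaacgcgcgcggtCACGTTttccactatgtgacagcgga
Nr1d1, E-box, chr10:84229620-84229665, minus strand: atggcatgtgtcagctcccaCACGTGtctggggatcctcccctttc
Nr1d1, E-prime box read on the opposite strand, window of another start, chr10:84231961-84232006, minus strand: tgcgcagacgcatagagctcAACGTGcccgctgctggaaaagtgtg
Cry2, E-prime box read on the opposite strand, chr3:98860624-98860669, minus strand: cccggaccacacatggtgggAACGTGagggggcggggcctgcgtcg
Of 33469 promoter windows, 6.42% held the E-box, 4.83% the E-prime box, 1.01% the D-box and 1.46% the ROR element. The windows of Clock, Npas2, Per1, Per3, Nr1d2 and Dbp held none of these letters, which says nothing of sites outside them. Cry1 had no entry.

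Levels are log2 values after gcRMA, which corrects for background and puts the arrays on a common scale, and a difference of 1 is a doubling. Array medians lay between 3.85 and 3.92 for Si deplete and between 3.80 and 3.84 for Si replete arrays, without overlap. The first principal component of all probe sets held 42.1% of the variance, and the diets did not overlap on it. Si replete arrays lay at -25.9 to -18.8 and Si deplete 2 to 4 at -1.9 to 19.2. Si deplete 1 stood apart at 64.0, so results are also given without this array. Kidney markers were bright, with proximal tubule genes averaging 11.16 to 12.00 on the 8 arrays. Markers of the adrenal gland, which lies on the kidney and has a clock of its own, had mean levels under 4 for 7 of 7 genes. Whole kidney was measured, so fewer cells of a type and less RNA per cell cannot be told apart. Arrays are of separate rats, and 4 per diet limit the precision. Probe sets with a mean under 4 are called dim here, and 5 of the 18 clock probe sets were dim. Levels of different probe sets are not compared with each other.

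The clock genes did not separate the diets. At an adjusted p under 0.1 from limma, 0 of the 18 clock probe sets were higher and 0 were lower in Si deplete kidneys, where 0.151% of all probe sets passed. Their adjusted p-values lay between 0.284 and 0.979. At an unadjusted p under 0.05, 2 of the 18 (11.1%) would pass, against 14.9% of all probe sets. The 4 Si deplete levels and the 4 Si replete levels overlapped for every clock probe set, and groups that do not overlap made up 9.37% of all probe sets. On the brightest probe set of each gene, 3 genes had the higher mean in Si deplete kidneys and 7 in Si replete kidneys, with a median log2 fold change of -0.09 against 0.00013 over all genes. Without Si deplete 1, 0 of 18 passed at either threshold. The 95% intervals of the brightest probe sets reached to -1.23 for Dbp, -1.22 for Per2 and 1.18 for Npas2.

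**Figure D1:**
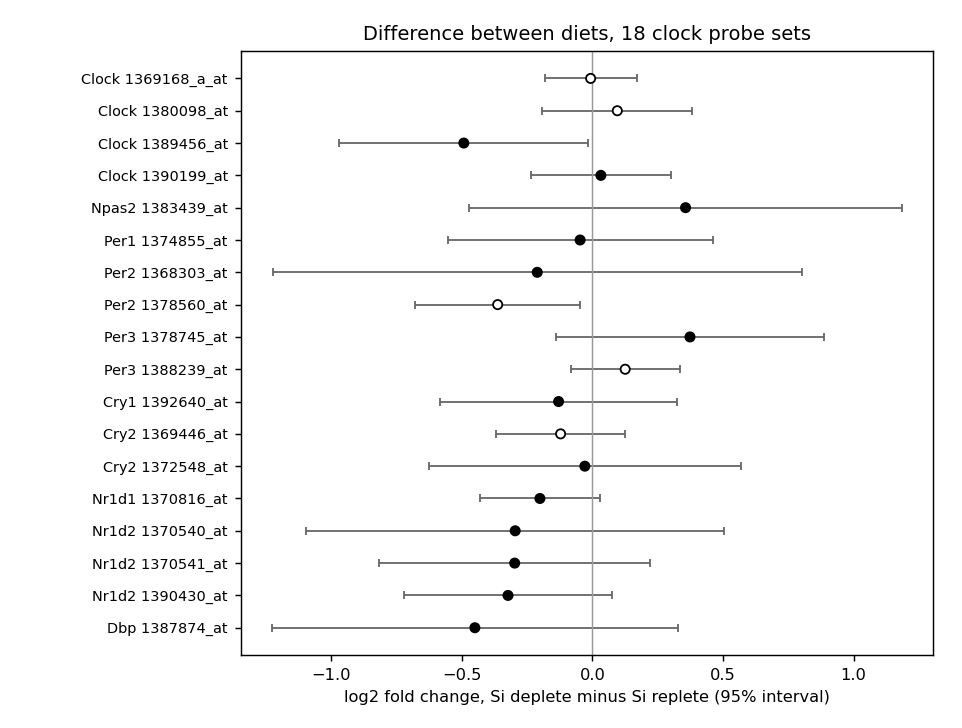
Log2 fold change of each of the 18 clock probe sets, Si deplete minus Si replete, with the 95% interval from limma (4 arrays per diet). Filled points are probe sets with a mean level of 4 or more and open points are dim ones. The intervals of Clock 1389456_at and Per2 1378560_at lie below 0, and all others include 0; none of the 18 passed at an adjusted p under 0.1.

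What the clock genes showed was a spread among kidneys of the same diet. Within diets, their brightest probe sets had a median SD of 0.379, against 0.187 for the 15115 probe sets with a mean of 4 or more. Per2 stood at the 98.7th percentile of these SDs, Npas2 at the 97.4th, Dbp at the 96.7th and Cry2 at the 92.6th. Nr1d1 lay at the 29.3rd and Clock at the 45.7th. The range was wider in Si replete than in Si deplete kidneys for 7 of the 10 genes, which describes 4 rats each and was not tested. In 5 genes, Clock, Npas2, Per2, Cry2 and Dbp, the highest and the lowest of all 8 levels were those of Si replete 1 and Si replete 3, in either order.

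Of the activators, Npas2 was the one with wide swings. Its levels were 5.27, 5.33, 5.82 and 4.94 in Si deplete 1 to 4 and 3.91, 4.92, 5.84 and 5.27 in Si replete 1 to 4. The lowest level, in Si replete 1, and the highest, in Si replete 3, belonged to the same diet and were 3.82-fold apart. The diets differed by 0.36 with a standard error of 0.37 (adjusted p = 0.683 by limma). Clock itself was nearly level on its brightest probe set, 1390199_at, at 9.05, 9.14, 9.22 and 8.92 in Si deplete kidneys and 8.75, 9.04, 9.22 and 9.19 in Si replete kidneys. Si replete 1 was lowest here too, and the diet means differed by 0.03 (standard error 0.12).

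Another Clock probe set, 1389456_at, read 6.23, 6.92, 6.98 and 6.42 in Si deplete kidneys and 6.63, 7.26, 7.27 and 7.35 in Si replete kidneys. The 3 highest levels were Si replete, but Si replete 1 lay below 2 of the Si deplete kidneys. Its log2 fold change was -0.49 (standard error 0.21, limma unadjusted p = 0.0441, adjusted p = 0.324), which differs in sign from that of the brightest probe set, so the 2 probe sets disagreed. Without Si deplete 1 it was -0.36 (adjusted p = 0.527). The other Clock probe sets, 1369168_a_at and 1380098_at, were dim, at 1.53 to 1.78 and 2.51 to 3.12, with log2 fold changes of -0.01 and 0.10.

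Bmal1, the partner of both activators, is no member of the group but completes it. Its levels were 5.62, 6.13, 6.09 and 5.34 in Si deplete kidneys and 3.94, 5.13, 6.46 and 5.72 in Si replete kidneys. As for Npas2, Si replete 1 was the lowest array and Si replete 3 the highest, 5.73-fold apart. The diets differed by 0.48 (standard error 0.46, limma adjusted p = 0.66), and by 0.02 without Si replete 1.

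The Per genes encode the repressors that accumulate after activation. Per2 varied most of the 10 genes on its brightest probe set, 1368303_at, with levels of 7.12, 7.79, 7.80 and 8.32 in Si deplete kidneys and 8.97, 8.29, 6.64 and 7.99 in Si replete kidneys. The order of the Si replete kidneys was the reverse of that of Bmal1, with Si replete 1 5.03-fold above Si replete 3. Its log2 fold change was -0.21 (standard error 0.45, limma adjusted p = 0.86), and 0.00222 without Si deplete 1. The dim Per2 probe set 1378560_at had the smallest p of the 18, with 3.22, 3.35, 3.53 and 3.59 in Si deplete kidneys and 4.10, 3.73, 3.47 and 3.84 in Si replete kidneys. There 3 of the 4 Si replete levels lay above every Si deplete level, and the log2 fold change was -0.36 (standard error 0.14, adjusted p = 0.284 by limma, exact permutation p = 0.0857). Both probe sets of Per2 had their highest level in Si replete 1, and Si replete 3 had the lowest level only on the bright one.

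Per1, which also responds to hormones and other acute signals, did not follow Per2. Its levels were 6.05, 5.49, 5.07 and 5.03 in Si deplete kidneys and 5.20, 5.58, 5.32 and 5.72 in Si replete kidneys. Si deplete 1 was the highest array, and the spread was wider in Si deplete than in Si replete kidneys. The log2 fold change was -0.05 (standard error 0.22), and -0.26 without Si deplete 1. Per3 was near the lower end of the scale on 1378745_at, at 4.72, 4.62, 4.26 and 4.11 in Si deplete kidneys and 4.64, 4.13, 3.58 and 3.85 in Si replete kidneys. Its lowest level was in Si replete 3 and its highest in Si deplete 1, with a log2 fold change of 0.37 (standard error 0.23, limma adjusted p = 0.47). Its other probe set, 1388239_at, was dim at 2.55 to 3.00.

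Of the cryptochromes, the partners of PER in repression, Cry2 ran with Per2. On 1372548_at its levels were 5.70, 5.98, 6.16 and 6.31 in Si deplete kidneys and 6.74, 6.14, 5.32 and 6.07 in Si replete kidneys. Si replete 1 was the highest array and Si replete 3 the lowest, 2.66-fold apart, while the diet means differed by -0.03 (standard error 0.26). The other Cry2 probe set, 1369446_at, was dim at 1.57 to 2.10. Cry1, which in peripheral tissues peaks later than the Per genes, read 5.70, 5.64, 5.59 and 5.95 in Si deplete kidneys and 6.49, 5.62, 5.77 and 5.51 in Si replete kidneys. Only Si replete 1 stood clear of the rest, at 6.49 against 5.95 or less, and the log2 fold change was -0.13 (standard error 0.20).

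**Figure D2:**
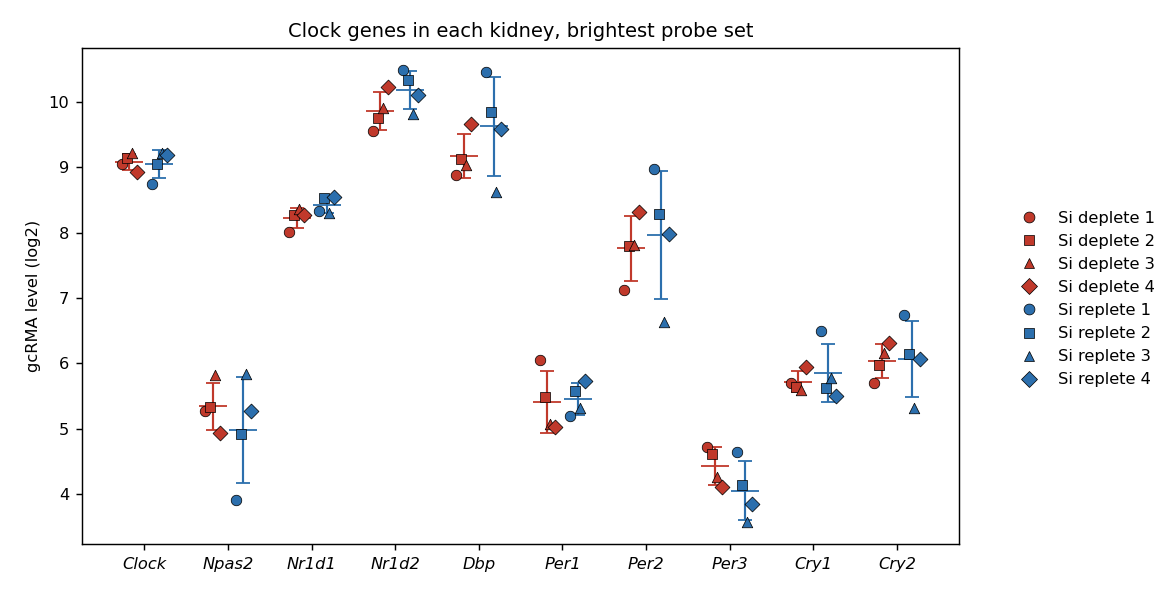
Level (log2, gcRMA) of each of the 10 clock genes on its brightest probe set, 1 point per kidney, with the mean and SD of each diet (n = 4). The diets overlap for every gene, and the points of the Si replete kidneys spread widest for Per2, Npas2 and Dbp.

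The REV-ERB genes, whose products repress Bmal1, differed in how far they spread. Nr1d2 was measured by 3 probe sets, and on the brightest, 1390430_at, it read 9.55, 9.76, 9.91 and 10.23 in Si deplete kidneys and 10.48, 10.33, 9.81 and 10.11 in Si replete kidneys. Si replete 1 was again the highest array, but here the lowest was Si deplete 1, with Si replete 3 above 2 of the Si deplete kidneys. Its log2 fold change was -0.32 (standard error 0.18, limma adjusted p = 0.424), beside -0.30 on both 1370541_at and 1370540_at. Without Si deplete 1, the differences were -0.22, -0.14 and -0.06. Nr1d1 read 8.01, 8.26, 8.35 and 8.27 in Si deplete kidneys and 8.33, 8.54, 8.30 and 8.54 in Si replete kidneys, a range of 0.53 over all 8 arrays. It did not single out Si replete 1, and its log2 fold change was -0.20 (standard error 0.10, limma adjusted p = 0.387, exact permutation p = 0.0857). The smallest p that 70 arrangements allow is 0.0286.

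Dbp, the output factor of the loop and the gene of widest daily swing in many tissues, read 8.88, 9.13, 9.03 and 9.66 in Si deplete kidneys. In Si replete kidneys it read 10.45, 9.85, 8.62 and 9.58. The highest and the lowest of the 8 levels were both Si replete, 3.56-fold apart, and every Si deplete level lay between them. The mean was 9.18 ± 0.34 (SD, n = 4) with the Si deplete diet and 9.63 ± 0.76 (SD, n = 4) with the Si replete diet. The difference of -0.45 had a 95% interval from -1.23 to 0.33 (limma adjusted p = 0.566), and was -0.35 without Si deplete 1. It moved most with the kidneys at the ends, to -0.17 without Si replete 1 and to -0.78 without Si replete 3 (limma adjusted p = 0.845 and 0.326). Without Si replete 3, Dbp was among the probe sets at an unadjusted p under 0.05.

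These levels were put together as 1 reading per kidney. The index is the mean deviation of Nr1d1, Nr1d2, Dbp, Per1, Per2 and Per3 from their means over the 8 arrays, minus the same mean for Bmal1, Npas2 and Clock, on the log2 scale and on the brightest probe sets. A high value goes with the side of the cycle that textbooks place from the light phase to early night, and a low value with late night to dawn. It is a description and was not tested. The index was highest in Si replete 1 at 1.53, followed by Si replete 2 at 0.47 and Si deplete 4 at 0.25. Si replete 4 followed at -0.05, then Si deplete 1 at -0.21, Si deplete 2 at -0.31 and Si deplete 3 at -0.59, and Si replete 3 was lowest at -1.08. Si replete kidneys thus held both ends of the order, and the 4 Si deplete kidneys lay between them, as did Si replete 2 and Si replete 4. The range was 2.61 among Si replete and 0.84 among Si deplete kidneys.

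In Si replete 1, the genes of the first arm averaged 0.46 above their means and those of the second arm 1.06 below theirs. In Si replete 3 the first arm averaged 0.50 below and the second 0.58 above. The arm means thus lay on opposite sides in both kidneys, although Per1 lay at -0.23 in Si replete 1. Nr1d1 stayed near its mean in both, at 6.4e-05 in Si replete 1 and -0.02 in Si replete 3. In Si deplete 1 the first arm was itself divided, since Per1 and Per3 lay at 0.62 and 0.48 while Per2, Nr1d2 and Dbp lay at -0.75, -0.47 and -0.52. Cry2, left out of the index, deviated by 0.68 in Si replete 1 and by -0.73 in Si replete 3. The mean index was -0.22 ± 0.35 (SD, n = 4) with the Si deplete diet and 0.22 ± 1.09 (SD, n = 4) with the Si replete diet. Their difference of -0.43 was not tested, and these SDs describe single kidneys, not its precision. The difference was 0.00295 without Si replete 1 and -0.87 without Si replete 3, and without Si deplete 1 it was -0.44. The hour at which each rat was killed would be needed to read the index as a time, and whether it follows that hour was not tested.

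**Figure D3:**
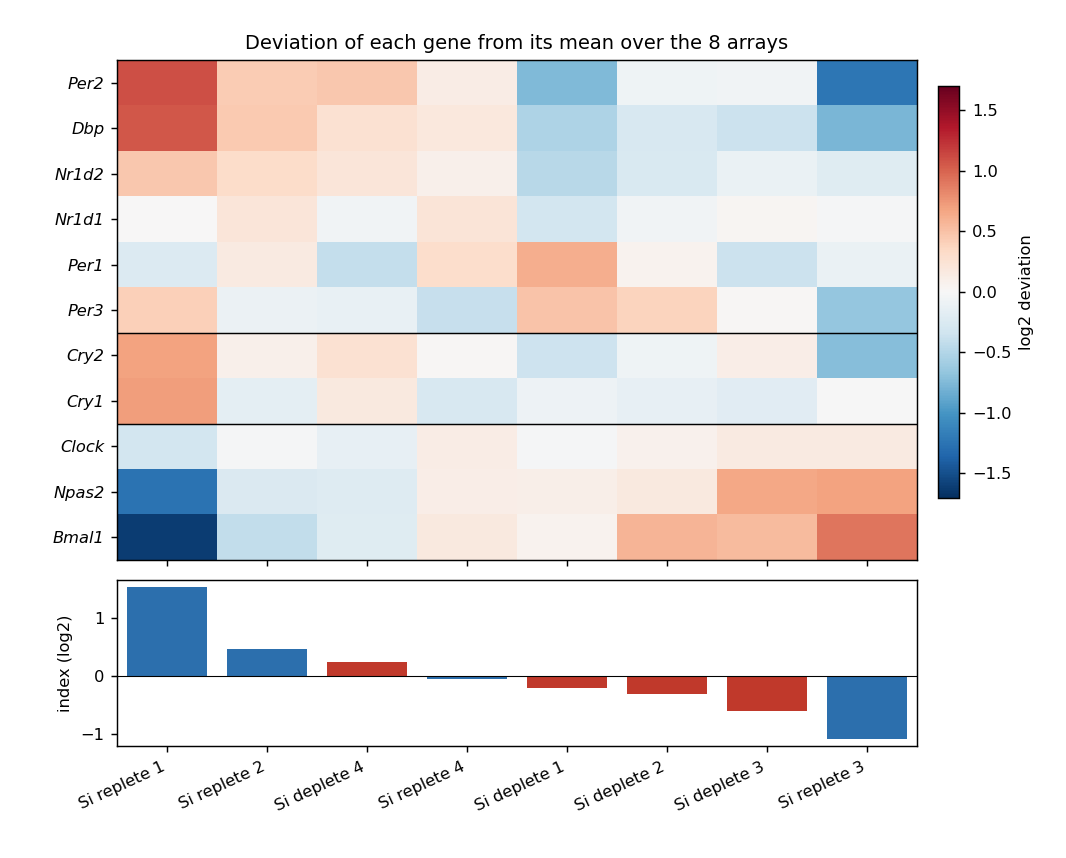
Deviation of each clock gene and of Bmal1 from its mean over the 8 arrays (log2, colour), and below it the clock profile index of each kidney (log2, bars from 0), with kidneys ordered by the index. Si replete 1 (1.53) and Si replete 3 (-1.08) lie at opposite ends, with the 4 Si deplete kidneys between them.

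The genes were next set against Dbp across the 8 kidneys, as 10 relations that took in the 9 other members and Bmal1. The Dbp levels of the diets overlapped, so the arrays were pooled. Per2 rose with Dbp (Pearson r = 0.948, Spearman rho = 0.952, n = 8, exact permutation p = 0.000298 and 0.00114). So did Nr1d2 (r = 0.915, rho = 0.881, exact permutation p = 0.00243 and 0.00724) and Cry2 (r = 0.896, rho = 0.81, exact permutation p = 0.00275 and 0.0218). Bmal1 ran against Dbp (r = -0.917, rho = -0.833, exact permutation p = 0.00161 and 0.0154), as did Npas2 (r = -0.914, rho = -0.857, exact permutation p = 0.00144 and 0.0107) and Clock (r = -0.792, rho = -0.81, exact permutation p = 0.0171 and 0.0218). These 6 of 10 relations passed 0.05 after adjustment over the 10. Of 9488 other genes with a mean level of 4 or more, these 6 included, 177 (1.87%) had an r with Dbp of 0.792 or more in size. Adjusted Pearson p-values from the exact permutation were 0.00298 for Per2, 0.00551 for Nr1d2 and Cry2, 0.00537 for Bmal1 and Npas2, and 0.0285 for Clock. The adjusted Spearman values of these 6 were 0.0114 to 0.0363. Cry1 (r = 0.628, rho = 0.19), Nr1d1 (r = 0.434, rho = 0.405), Per3 (r = 0.254, rho = 0.143) and Per1 (r = -0.236, rho = -0.214) did not pass, at exact permutation p-values adjusted to 0.133, 0.359, 0.573 and 0.573 for r and to between 0.467 and 0.752 for rho.

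How far these relations rest on the extreme kidneys differed among genes. The 2 arrays farthest from the median Dbp level were left out, which left 6 arrays. The r was then 0.955 for Nr1d2, 0.889 for Per2 and 0.672 for Cry2, and -0.731 for Bmal1, -0.724 for Npas2 and -0.394 for Clock. It was 0.146 for Cry1, 0.738 for Nr1d1, -0.770 for Per3 and -0.223 for Per1. Without Si replete 1 alone, r was 0.922 for Per2, 0.876 for Nr1d2, 0.805 for Cry2, -0.835 for Bmal1, -0.824 for Npas2 and -0.540 for Clock. The exact permutation p adjusted over the 10 was then 0.00794 for Per2, 0.0556 for Nr1d2, Cry2, Bmal1 and Npas2, and 0.289 for Clock, from 7 arrays. Of these 6 relations only that of Per2 then passed, although r stayed above 0.8 in size for the first 5. The relation of Clock also missed the threshold without Si deplete 2, Si deplete 3 or Si replete 3, at r of -0.784, -0.777 and -0.756.

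Within diets, after each gene and Dbp were centred on their diet means, r was 0.979 for Per2, 0.963 for Cry2 and 0.906 for Nr1d2 (exact permutation within diets, adjusted p = 0.0174 each), where 0.506% of the 9488 genes had an r of 0.906 or more in size. It was -0.908 for Bmal1 and -0.906 for Npas2 (adjusted p = 0.0556 each, exact permutation) and -0.823 for Clock (adjusted p = 0.0781, exact permutation). The 3 genes that ran with Dbp thus did so within diets as well, and the 3 that ran against it missed the threshold there. The 4 other relations had exact permutation p-values adjusted to between 0.365 and 0.597 within diets.

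**Figure D4:**
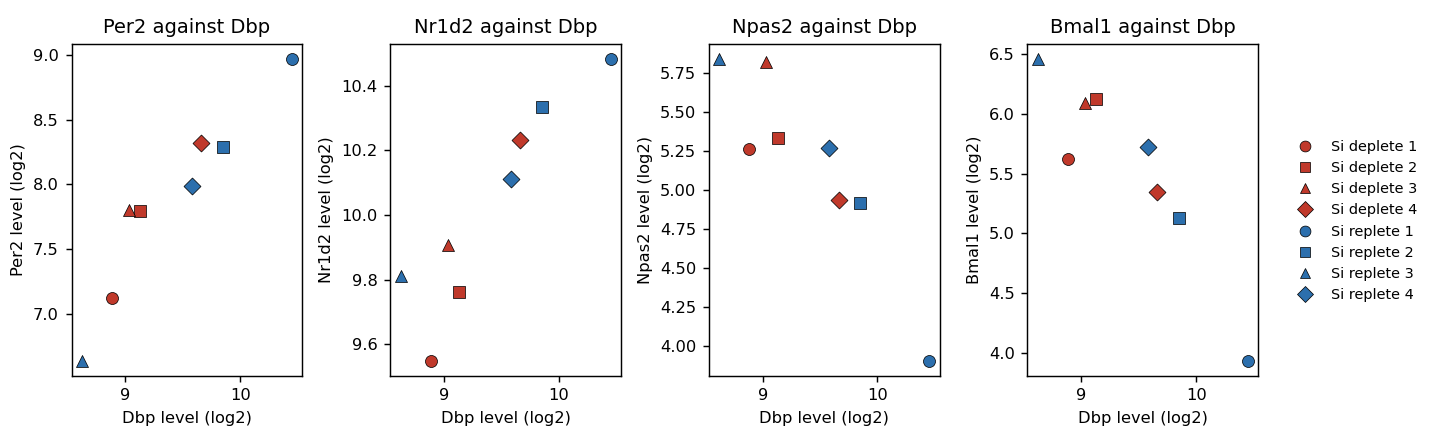
Levels (log2, gcRMA) of clock genes against the level of Dbp, 1 point per kidney, coloured by diet and marked by replicate number. Per2 and Nr1d2 climb and Npas2 and Bmal1 decline along Dbp, with Si replete 1 at the right end and Si replete 3 at the left.

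Of 17 other genes listed for the clock loops, 13 were measured and 0 passed, with a median log2 fold change of 0.08. At an unadjusted p under 0.05, 3 were higher and 1 was lower (30.8%, against 14.9% of all probe sets), and the groups did not overlap for 3 (23.1%, against 9.37%). Nfil3, whose product E4BP4 competes with DBP for D-box elements, had levels of 7.16, 6.15, 5.85 and 5.87 in Si deplete kidneys and 4.53, 4.47, 5.55 and 5.19 in Si replete kidneys. The lowest Si deplete level, 5.85, was above the highest Si replete level, 5.55, and the log2 fold change was 1.32 (standard error 0.33, limma adjusted p = 0.176). It was 1.02 without Si deplete 1 and 1.19 without Si replete 1. Csnk1d, a kinase that marks PER proteins for decay, differed by 0.22 on its brightest probe set (standard error 0.08, limma adjusted p = 0.267), and by 0.42 on 1370819_at (adjusted p = 0.247). Timeless was dim, with a log2 fold change of 0.77 (limma adjusted p = 0.271) and of 0.44 without Si deplete 1, where the level was 5.32 against 3.85 to 4.15 in the other Si deplete kidneys.

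Some relatives of the members shared their highest array. Bhlhe41, which encodes the repressor DEC2, read 6.14, 6.69, 6.47 and 7.43 in Si deplete kidneys and 8.12, 7.68, 6.41 and 7.26 in Si replete kidneys. Tef, a D-box factor like Dbp, read 7.25, 7.91, 8.23 and 8.53 in Si deplete kidneys and 9.17, 8.59, 7.31 and 8.22 in Si replete kidneys. On their brightest probe sets, both were highest in Si replete 1 and lowest in Si deplete 1, which is number 5 from the top of the index. Their log2 fold changes of -0.68 and -0.35 did not pass (limma adjusted p = 0.424 and 0.716). Another Tef probe set, 1385374_at, was also highest in Si replete 1 but lowest in Si deplete 3. Its log2 fold change was -0.67 (limma adjusted p = 0.259). Hlf, the third D-box factor of this family, read 5.45 in Si deplete 1, against 7.17 to 7.32 in the other Si deplete kidneys and 6.89 to 8.49 in Si replete kidneys, with the highest level again in Si replete 1. Among 7520 genes ranked by the Pearson r between their deviations from the diet means and those of the index, Bhlhe41 was number 28 (0.88), Tef number 68 (0.82), Hlf number 492 (0.56) and Bhlhe40, the relative of Bhlhe41, number 759 (0.49). Cry2, which the index does not use, was number 19 (0.89). The other loop genes in this ranking ran against the index. They were Csnk1d at -0.58 (number 7023), Rora at -0.53 (number 6876) and Btrc at -0.49 (number 6721). These ranks describe the 8 kidneys and have no p, and index and diet were not tested against each other.

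Of 15 listed outputs of the clock, 14 were measured and 0 passed, with a median log2 fold change of -0.07. At an unadjusted p under 0.05, 2 were higher and 2 lower (28.6%, against 14.9% of all probe sets), and the groups did not overlap for 3 (21.4%, against 9.37%). Noct, which encodes the NADP(H) phosphatase nocturnin, did not overlap between diets, with levels of 8.04, 7.76, 8.36 and 8.46 in Si deplete kidneys and 9.72, 8.70, 9.08 and 8.93 in Si replete kidneys. Its log2 fold change was -0.95 (standard error 0.23, limma adjusted p = 0.17), and -0.75 without Si replete 1. Its order within the Si replete diet was not that of the index, since Si replete 3 was its second highest array. Nampt, the enzyme that limits NAD salvage, was also apart, with a log2 fold change of 0.76 that was 0.41 without Si deplete 1. So was Klf9, at -0.23, and at -0.15 without Si deplete 1. Usp2, a deubiquitinase under clock control, followed the index more closely (r = 0.65 within diets, number 278), and so did Wee1, a cell cycle kinase (0.84, number 55). Usp2 was highest in Si replete 1, at 9.96, but lowest in Si deplete 1, at 8.34. It read 9.02 in Si replete 3, the lowest array of the index. Of the other outputs in that ranking, Alas1 (r = 0.60), Tspan4 (0.51), Noct (0.48) and Insig2 (0.40) ran with the index more weakly. Klf9 (0.13) and Nampt (0.05) hardly followed it. Herpud1 (-0.11), Por (-0.19), Klf10 (-0.24), Klf15 (-0.30) and Klf13 (-0.48) ran against it. Of 13 listed genes of renal transport and water handling that are known to cycle, 12 were measured and 0 passed. Their median log2 fold change was -0.14, and 2 were higher at an unadjusted p under 0.05 (16.7%, against 14.9% of all probe sets). The smallest p-values were those of Fxyd5 (0.92, limma adjusted p = 0.209) and Cldn4 (0.80, limma adjusted p = 0.228), both against the sign of the median. Without Si deplete 1 these were 0.77 and 0.52.

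**Figure D5:**
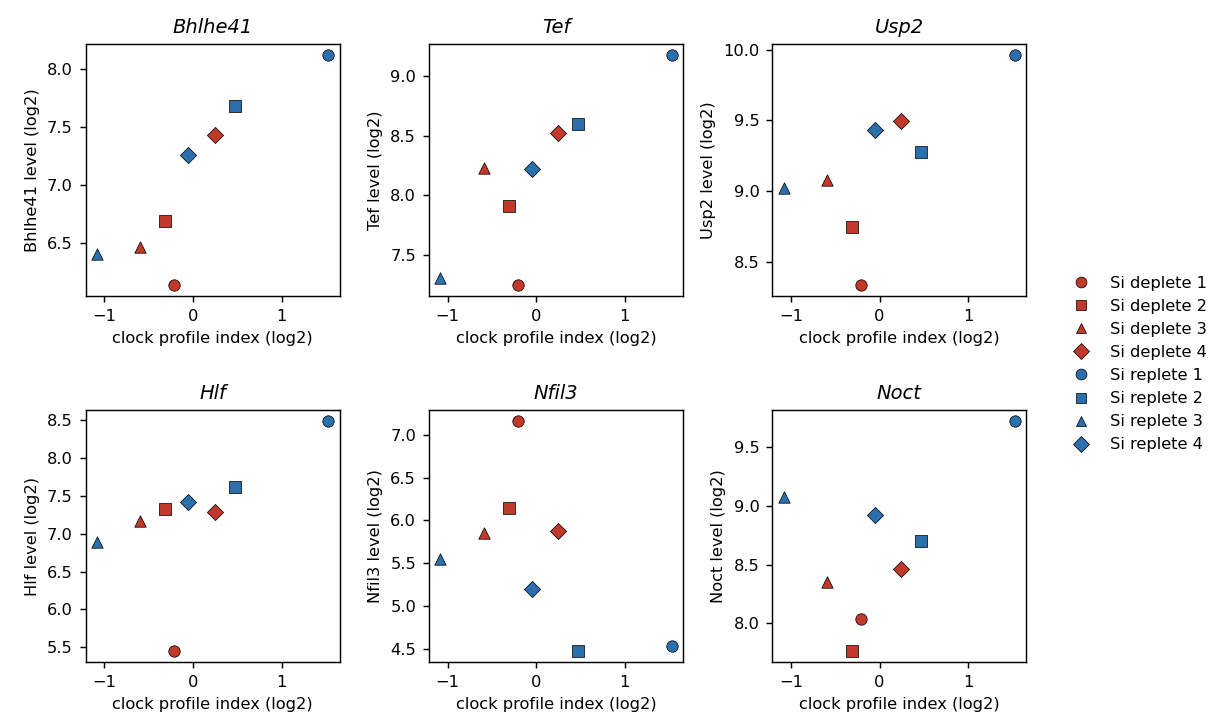
Levels (log2, gcRMA) of relatives and outputs of the clock against the clock profile index (log2), 1 point per kidney, coloured by diet and marked by replicate number. Tef and Bhlhe41 are highest in Si replete 1 at the right end and lowest in Si deplete 1, while the levels of Nfil3 and Noct do not overlap between diets, with differences of 1.32 and -0.95.

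Without regard to function, the 5 genes whose deviations ran closest to the index within diets were Cnih1 (r = 0.97), Nans, Tacc2, Yipf5 and Creld1 (0.95). The 5 that ran most against it were Mbtd1 (-0.96), Cyth3, Rap2c, Itga6 and Secisbp2l (-0.94). All 10 had Si replete 1 and Si replete 3 as their extreme arrays, over 8 kidneys and among 7520 genes with a mean level of 6 or more. These arrays are also the ends of the index by which the genes were picked, so this is no separate finding. Their levels spanned 0.27 for Cnih1 to 1.00 for Secisbp2l, against 1.83 for Dbp.

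Signals that can also move clock genes, and the cell types a kidney sample can hold, were read from lists. None of 11 measured glucocorticoid targets passed, with a median log2 fold change of 0.03, led by Mt2A (0.57) and Cdkn1a (1.21). None of 10 measured fasting and refeeding genes passed (median 0.04), led by Plin2 (0.71) and Angptl4 (0.90). Of 21 immediate early genes, Myc passed at 2.28 (limma adjusted p = 0.0817), 12 were higher at an unadjusted p under 0.05 (57.1%, against 14.9% of all probe sets) and the median was 0.46. Klf6 was at 1.09 on its brightest probe set and passed on 1388986_at (0.92, limma adjusted p = 0.0864). Of 17 kidney injury genes, 0 passed on the brightest probe sets, 14 were higher at an unadjusted p under 0.05 (82.4%) and the median was 0.69, with Spp1 at 0.95 and Cd44 at 1.17. Cd44 passed on 1387952_a_at (1.82, limma adjusted p = 0.0864). The mean deviation of both lists was largest in Si deplete 1, at 0.78 and 1.14, which was also the array with the highest Per1. Their part in the clock readings was not tested.

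For the marker lists, 0 genes passed in any of them, on any probe set, where 0.151% of all probe sets passed. At an unadjusted p under 0.05 from limma, 3 of 4 blood cell genes (75%) and 3 of 6 glomerulus genes (50%) were lower. Higher were 4 of 10 macrophage (40%), 3 of 10 fibroblast and mural (30%) and 2 of 8 lymphocyte genes (25%). The share was 14.3% for loop of Henle and distal tubule, endothelium, adrenal gland and fat. It was 0% for proximal tubule and collecting duct, against 14.9% of all probe sets. Median log2 fold changes were -0.15 for 10 proximal tubule genes (led by Slc22a6, -0.51, and Slc22a8, -0.43), -0.03 for 7 of the loop of Henle and distal tubule (Calb1, -0.27, and Pvalb, 0.14), -0.14 for 8 of the collecting duct (Slc4a1, -0.26, and Atp6v1b1, -0.21) and -0.59 for 6 of the glomerulus (Plce1, -0.62, and Wt1, -0.70). They were -0.01 for 7 of endothelium (Vwf, -1.02, and Egfl7, 0.26), 0.29 for 10 of fibroblasts and mural cells (Col1a1, 1.80, and Col3a1, 1.48), 0.49 for 10 of macrophages and myeloid cells (Ptprc, 0.77, and Tyrobp, 0.64) and 0.43 for 8 of lymphocytes (Cd3e, 0.98, and Cd3d, 0.75), of which 6 were dim. They were -0.36 for 4 of blood cells (Epb42, -0.29, and Alas2, -1.29), -0.04 for 7 of the adrenal gland (Cyp21a1, -0.36, and Cyp17a1, -0.21) and -0.10 for 7 of fat (Lpl, -0.63, and Fabp4, -0.52).

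The lists were last compared between Si replete 1 and Si replete 3, the ends of the clock order, by the mean deviation of each. It was -0.14 and -0.82 for kidney injury genes, -0.22 and 0.18 for fasting and refeeding genes, 0.03 and -0.39 for fibroblast and mural genes, -0.32 and -0.69 for macrophage genes and 0.43 and -0.06 for fat genes. These 5 lists differed more between these kidneys than the 10 lists that follow. It was 0.10 and 0.39 for the glomerulus, -0.12 and -0.41 for lymphocytes, 0.29 and 0.15 for blood cells, -0.23 and -0.34 for immediate early genes and -0.16 and -0.21 for glucocorticoid targets. For proximal tubule it was -0.05 and -0.13, for the loop of Henle and distal tubule 0.03 and 0.14, for collecting duct 0.08 and 0.10, for endothelium 0.08 and 0.07 and for the adrenal gland 0.04 and -0.06. Within diets, the mean of the fasting and refeeding genes had an r of -0.63 with the index over the 8 kidneys, as a description. This r was 0.57 for fat, 0.56 for kidney injury, 0.55 for fibroblast and mural genes and 0.50 for lymphocytes. It was 0.43 for the adrenal gland and 0.34 for macrophage genes. For the other lists of this paragraph it lay between -0.36 (loop of Henle and distal tubule) and 0.28 (collecting duct). The part of feeding state, injury and cell make-up in the clock readings was not tested.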

How the data were processed

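RNA of 1 left kidney per rat was hybridized to each of 8 Affymetrix rat genome arrays. The values deposited by the authors are log2 levels, for which gcRMA and m-estimators had been used to correct, normalize and summarize the probes of a set (GCRMA 2.36.0 in the submitters' processing notes). Probe intensities were not used here, and no source used here gives a filter on the deposited probe sets. Of 31099 probe sets, 57 array controls were left out. Diets were compared as Si deplete minus Si replete with limma 3.58.1 in R 4.3.3 (lmFit and eBayes, no trend, no level filter), with p-values of all 31042 probe sets adjusted by Benjamini-Hochberg and called under 0.1, after the false discovery rate that the study's methods name. For single probe sets, the difference of means was also set against all 70 arrangements of the arrays (exact permutation, 2-sided). Relations to Dbp were tested over 10 genes by exact permutation of 40320 pairings, or of 576 within diets, in Python 3.11.15 with scipy 1.17.1. The code was tested on simulated data.

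Probe sets were taken by gene symbol from the platform annotation, and the 18 probe sets of the members carry Entrez IDs that RefSeq pairs with the same symbols. The brightest probe set stands for a gene in lists. The members, the lists and the index were chosen with earlier results of these data known, although the rule itself uses symbols only. Named genes were all 10 members, Bmal1 and the other clock loop genes whose groups did not overlap. Up to 2 genes with the smallest p of each other list were also named, as were the 5 genes most and least like the index. Bhlhe40, Bhlhe41, Tef, Hlf, Rora, Btrc, Usp2, Wee1, Alas1, Insig2, Herpud1, Por, Klf9, Klf10, Klf13, Klf15 and Tspan4 were named after their values were seen. Same-numbered arrays of the 2 diets had correlated deviations of -0.0880 to 0.0904, and the numbers were taken as names, not pairs. Arrays correlated at 0.9892 or more within diets and at 0.9961 at most, so none was counted as a repeat of another. The alternatives tried were eBayes with a trend or with a robust prior, weights per array, median subtraction, quantile normalization, filters at mean levels of 4 and 6, the replicate number as a block, omission of each array in turn, an adjusted p of 0.05, and Storey's q-value with a lambda of 0.5. Chosen after seeing the data were the same rescalings and omissions for the relations to Dbp, and the omission of single arrays for genes of the other lists.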

Additional observations from a re-analysis of the deposited data

Results flagged for a closer look

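In 138 groups of 4 arrays, over 69 probe sets of the clock genes, the other loop genes and the outputs, the highest or the lowest level was checked for standing apart from the other 3 by Dixon's criterion. It did in 7 groups, and chance gives about 1 in 20, or 6.9 of 138. Among the members the only such group was the Si replete group of Clock 1389456_at, where Si replete 1 read 6.63 and the other kidneys 7.26 to 7.35. Si replete 1 also stood apart for Tspan4, at 8.66 against 8.30 to 8.35 in the other Si replete kidneys.

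Of the 7 groups, 4 had Si deplete 1 as the array that stood apart. Hlf read 5.45 there on 1385585_at (other Si deplete kidneys 7.17 to 7.32) and 4.95 on 1386641_at (7.15 to 7.31). Klf15 read 6.62 on 1381396_s_at (7.78 to 7.93), and Nampt read 10.66 (9.18 to 9.37). The remaining group was that of the dim Csnk1d probe set 1370528_at, at 3.01 in Si deplete 4 (3.24 to 3.28).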

How the results depend on the processing

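The count of clock probe sets that passed was 0 in each direction under every alternative that was run. The filters at mean levels of 4 and 6 left 13 and 8 of the 18 to test. The count over all probe sets went from 0 to 302. Adjusted p-values of the members from limma lay between 0.201 and 0.999 over the alternatives. At an unadjusted p under 0.05, between 0 and 3 clock probe sets passed, 0 of them without Si deplete 1 or without Si replete 4. With the replicate number as a block, 0 clock probe sets passed, against 104 of all probe sets, which was 47 without it. No member's call changed under the block. The replicate numbers were not shown to pair the samples.

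Directions were not settled for small differences, and the cause was not tested. Log2 fold changes turned sign for Clock 1369168_a_at after quantile normalization (0.016), for Clock 1390199_at after median subtraction (-0.025) and for Cry2 1372548_at with array weights (0.0024). With single arrays left out, they ranged from -0.043 to 0.043 for Clock 1369168_a_at, -0.034 to 0.17 for Clock 1380098_at, -0.067 to 0.088 for Clock 1390199_at and -0.0031 to 0.64 for Npas2. The range was -0.26 to 0.081 for Per1, -0.66 to 0.12 for Per2 1368303_at, -0.24 to 0.086 for Cry1 and -0.28 to 0.19 for Cry2 1372548_at. For Dbp, whose sign did not turn, it was -0.78 to -0.17. Over the same omissions the index difference went from -0.87 to 0.0030, and it was -0.43 with median subtraction, -0.41 with quantile normalization and -0.42 with all probe sets of a gene averaged.

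Against Dbp, with single arrays left out, r ranged from -0.876 to -0.540 for Clock, -0.952 to -0.824 for Npas2, -0.968 to -0.835 for Bmal1, 0.805 to 0.958 for Cry2 and 0.876 to 0.945 for Nr1d2. It ranged from 0.922 to 0.971 for Per2, which passed in every such run. Among the relations that did not pass, it ranged from -0.388 to 0.0215 for Per1, -0.144 to 0.512 for Per3 and -0.0582 to 0.743 for Cry1. With each array's median subtracted, the r of Clock was -0.645 (exact permutation, adjusted p = 0.121), and it no longer passed. The number of arrays, 4 per diet, limits all of these values.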
